A study of Mus musculus with 26 samples.

Results

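Wild-type bone marrow-derived mast cells (BMMCs) were compared with wild-type common myeloid progenitors (CMPs) by RNA sequencing. The 2 groups were chosen by the genotype and cell type in the labels and hold 9 of the 26 libraries of the series. The 5 libraries labelled WT BMMC-P3 came from mast cells that were grown from granulocyte-monocyte progenitors (GMPs), sorted from mouse bone marrow, in medium with interleukin-3 and stem cell factor; what P3 stands for is not given in the sources used here. The 4 libraries labelled WT CMP came from cells sorted from bone marrow as lineage-negative, SCA-1-negative, CD117-positive, CD34-positive and CD16/32-low. The BMMC libraries were labelled male and the CMP libraries female, and the groups were sequenced in different runs. Cell type, culture, sex and sequencing run therefore changed together and cannot be told apart in these libraries. For this reason a gene was called only at a fold change of at least 4 and an adjusted p under 0.01, and only on autosomes. The labels name no treatment. All 9 libraries carried the wild-type Prss57 gene, which encodes the granule protease NSP4 that was deleted in the other genotype of the series (NSP4 KO, Prss57-/-). No mouse age is given in the labels or in the study's account of these libraries, and the study calls its sequenced samples biological replicates. The labels do not tie a library to an animal or culture, so p-values measure the spread between these libraries.

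Mast cells, long-lived immune cells of tissues such as skin and mucosa, store histamine, serotonin, heparin and large amounts of protease in their granules, which they release when antigen cross-links IgE on the receptor FcεRI. CMPs are CD34-positive bone marrow progenitors that give rise to erythrocytes and megakaryocytes as well as to granulocytes and monocytes, the latter by way of GMPs. GMPs are thus the starting cells of the cultures, and GMP values are set beside those of BMMCs and CMPs where they were informative. The GMP libraries were female and shared the sequencing run of the CMP libraries.

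The BMMC libraries held 21322238 to 26457903 reads on genes and the CMP libraries 34203564 to 48033489. Expression of single libraries is given below as normalized RPKM, the deposited value per gene length and size factor, in the order of the replicate numbers in the labels. On the first principal component of log2 CPM, which held 93.7% of the variance, BMMC libraries lay at -142 to -124 and CMP libraries at 154 to 176. WT CMP 3 stood apart from the other CMP libraries. Its chi-square statistic per gene against each of them was 132 to 150, against 18.7 to 35.3 among the other 3. Of the NSP4 KO libraries cited below, NSP4 KO BMMC-P3 3 stood apart in its macrophage and mast cell genes. It also stood apart in genes of other kinds, such as those of ribosome biogenesis and cholesterol synthesis. Results with and without this library are given. Without WT CMP 3, the genes called higher in BMMCs numbered 2762 in place of 2587 and those called higher in CMPs 2114 in place of 1930.

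Fold changes also followed gene length. The median log2 fold change of BMMCs over CMPs was -0.97 in the quintile of autosomal genes with the shortest exons and 0.90 in the quintile with the longest, and it increased over the quintiles between them (-0.43, -0.05 and 0.35). In the shortest quintile 344 genes were called higher in BMMCs and 743 in CMPs, and in the longest 764 and 155. After the length trend of each library was removed, a step added after the data were seen, 2152 of the 2587 genes higher in BMMCs and 1316 of the 1930 genes higher in CMPs were still called. Of the genes named below, 13 lost their call with this step: Inpp5d, Plcg1, Tbxas1, Ndst1, Mecom, Pfkp, Slc2a3 and Ptprc of those higher in BMMCs and Gpx1, Npm1, Prg2, Rpl8 and Rps15 of those higher in CMPs. Reads on processed pseudogenes made up 0.965% to 1.06% of the BMMC libraries and 2.25% to 3.16% of the CMP libraries.

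**Figure D1:**
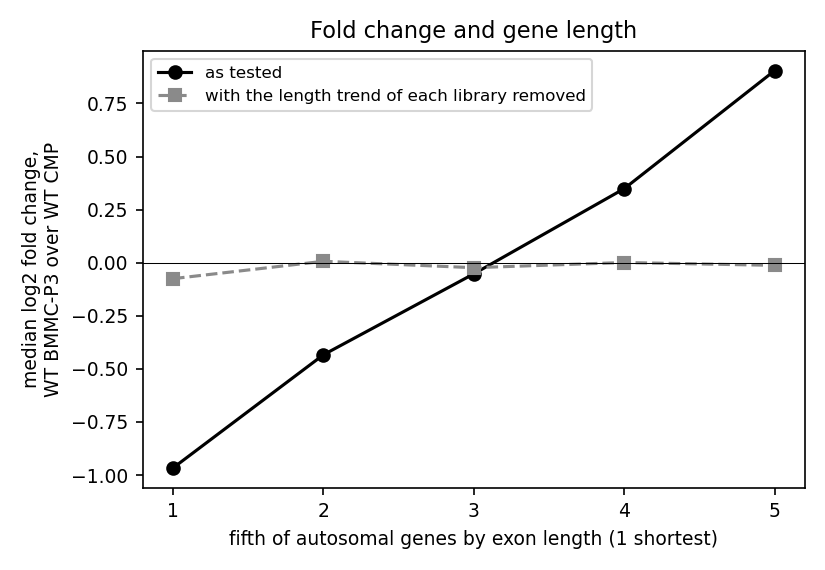
Median log2 fold change of WT BMMC-P3 over WT CMP (y axis) in 5 equal groups of autosomal genes ordered by exon length (x axis, 1 shortest), as tested and with the length trend of each library removed. The line as tested climbs from -0.97 to 0.90, and the corrected line lies between -0.08 and 0.01.

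BMMCs and CMPs differed across a large part of the transcriptome. Of 14401 autosomal genes tested, 2587 (18.0%) were called higher in BMMCs and 1930 (13.4%) higher in CMPs by edgeR's quasi-likelihood test, and the median log2 fold change over all of them was 0.00086. A fold change of at least 8 was reached by 1667 and 844 of the called genes. Among the called genes, the libraries of the groups did not overlap for 2564 and 1929. That follows largely from the thresholds of a call and is no separate support. Genes that were not called, such as Itm2b, Rplp1 and B2m, did not overlap either, and the share over all genes tested is not given. In 358 genes called higher in BMMCs every CMP library held at most 3 counts, and in 259 genes called higher in CMPs every BMMC library did. For such genes the fold change is given as a lower bound against 3 counts per library. Every count of called list members below is to be set beside the shares of all genes tested, 18.0% higher in BMMCs and 13.4% higher in CMPs.

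**Figure D2:**
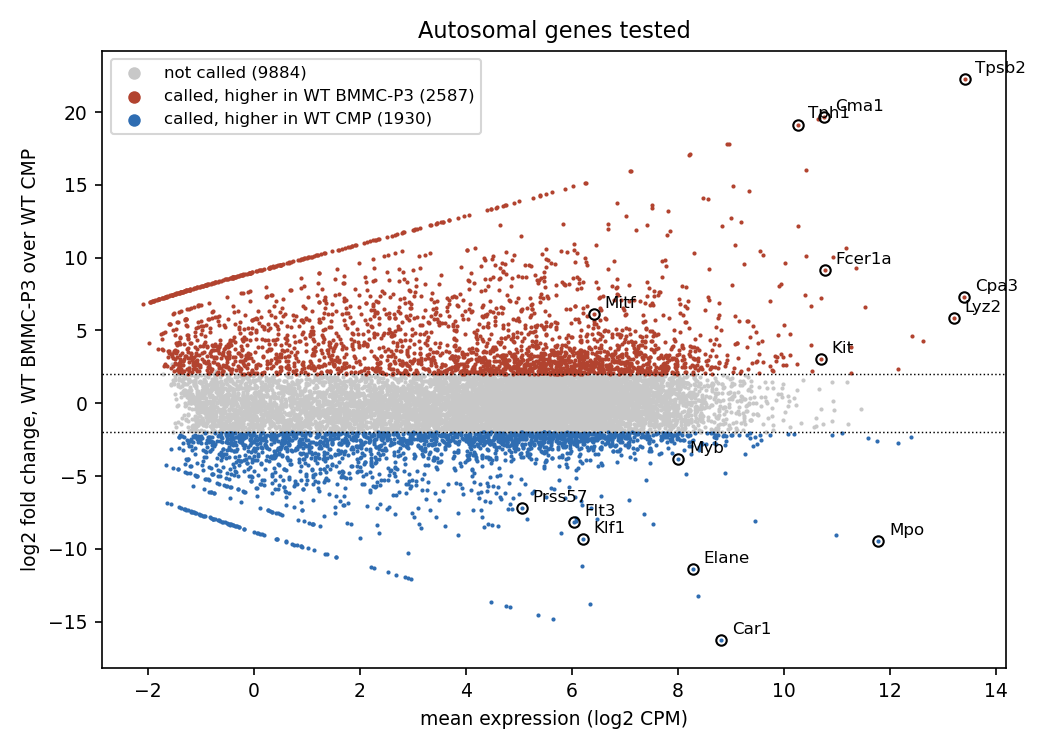
Log2 fold change of WT BMMC-P3 over WT CMP (y axis) against mean expression in log2 CPM (x axis) for each autosomal gene tested, with 2587 genes called higher in BMMCs in red and 1930 higher in CMPs in blue. Mast cell genes such as Tpsb2, Cma1 and Tph1 lie at the top, and Car1, Elane, Mpo and Klf1 at the bottom; dotted lines mark a fold of 4.

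The 10 protein-coding genes with the largest increase in BMMCs, among those of at least 10 CPM, were led by the granule proteases Tpsb2 and Cma1. Next came Mmp12 and the serotonin-synthesizing enzyme Tph1. The genes were Tpsb2, Cma1, Mmp12, Tph1, Tpsab1, Tpsg1, Rprm, Cobl, Gpnmb and Ccn3. Mmp12, macrophage elastase, was at 616, 544, 889, 743 and 711 in BMMCs and at 0 in every CMP library, which makes it at least 45814-fold higher. Gpnmb, a glycoprotein of lysosomes and melanosomes, was at 448 to 665 in BMMCs and 0 to 0.0210 in CMPs. Rprm, a p53 target linked to cell cycle arrest, was at 330.0 to 382, Cobl, an actin nucleator, at 77.3 to 117, and Ccn3, a secreted matrix-associated protein, at 61.9 to 123, and all 3 were at 0 in CMPs. In NSP4 KO BMMC-P3 3, Mmp12, Gpnmb, Ccn3 and the tryptase Tpsab1 were at 53.6, 80.3, 14.5 and 13.3, below the other 4 KO BMMC libraries. In the same library Cma1, Tph1, Tpsg1 and Rprm were above the other 4, the last 3 at 878, 1259.7 and 934 against 222 to 593, 465 to 629.8 and 254 to 349.

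The 10 genes with the largest increase in CMPs included 4 of the erythroid list described below, Car1, Rhd, Tspo2 and Aqp1. In order they were Car1, Rhd, Pklr, Tspo2, Cldn13, Adgrl4, Slc25a21, Aqp1, Atp7b and Ms4a4c. Car1, an erythroid carbonic anhydrase, was at 1012, 756, 642 and 551 in CMPs and at no more than 1 count in any BMMC library, at least 6813-fold higher. Pklr, the pyruvate kinase of red cells and liver, was at 16.5 to 34.2 in CMPs and 0 in BMMCs. Adgrl4, an adhesion receptor best known from endothelium, was at 35.1 to 46.6 in CMPs and 22.2 to 28.8 in GMPs and at no more than 0.0110 in BMMCs. Ms4a4c, a membrane protein of the MS4A family, was likewise at 5.58 to 10.6 in CMPs, 4.52 to 8.64 in GMPs and 0 in BMMCs. The mitochondrial carrier Slc25a21, the copper pump Atp7b and the claudin Cldn13 were at 12.0 to 21.3, 1.47 to 2.82 and 33.2 to 75.9 in CMPs and at 0 in BMMCs.

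Mast cell granule proteases showed the largest differences of the mast cell lists. All 9 autosomal members tested, of 11, were called higher in BMMCs, beside 18.0% of all genes tested. Their median log2 fold change was 14.90, or 12.24 with 6 members set to their lower bounds. Carboxypeptidase A3, encoded by Cpa3 (ENSMUSG00000001865, chr3:20215620-20242181 on GRCm38, reverse strand), trims peptides in the granule. Its expression was 10728, 11892, 11428, 16854 and 14008 in BMMCs and 82.5, 97.8, 63.3 and 72.5 in CMPs (log2 fold change 7.27 ± 0.23 SE, adjusted p = 3.5e-11 by edgeR's quasi-likelihood test). Every BMMC library was more than 100 times the highest CMP library, and GMPs lay between the groups at 209 to 306. Reads of Cpa3 alone made up 1.52% to 2.24% of all reads on genes in BMMCs and 0.0121% to 0.0174% in CMPs.

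The tryptase Tpsb2 (ENSMUSG00000033825, chr17:25366305-25369098, forward strand), which cleaves after basic residues and is held in the granule by heparin, was at 13369, 21978, 15771, 22649.9 and 14288 in BMMCs and 0 in all 4 CMP libraries. It was at least 312519-fold higher in BMMCs. The tryptase Tpsab1 was at 600.4 to 1005 and the membrane-anchored tryptase Tpsg1 at 564 to 735, also with no read in CMPs. The chymase Cma1 (chr14:55941451-55944675), which cleaves after aromatic residues, was at 3127, 3836, 2507, 2147 and 2464 in BMMCs, at 0 in CMPs and at 0.781 to 5.77 in GMPs. The other chymase-locus proteases Mcpt1, Mcpt2 and Mcpt4 were at 31.1 to 47.2, 241 to 384 and 93.1 to 142 in BMMCs and at no more than 0.126 in CMPs, and the granzyme Gzmb was at 86.3 to 132 against 0.163 to 0.672. Because only uniquely aligned reads were counted, the split of reads between Tpsab1 and Tpsb2, and among the Mcpt genes, is uncertain. Cma2 and Mcpt9 were too low to be tested.

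Promoter sequences are shown for 5 of the genes in the lists described here whose 200 bases before the start hold the motif AGATAA or its reverse complement TTATCT, the core bound by GATA factors. They were chosen from those with the motif for their place in the text: Cpa3 among the granule proteases, Fcer1a and Ms4a2, the ligand-binding and β chains, of the IgE receptor list and, from the genes higher in CMPs, Rhd and Epor of the erythroid list. Sequences are from RefSeq (GRCm38.p6), 5′ to 3′ on the gene's strand, with the motif in capitals. The windows are chr3:20242182-20242381 for Cpa3, chr1:173227230-173227429 for Fcer1a, chr19:11623720-11623919 for Ms4a2, chr4:134864336-134864535 for Rhd and chr9:21963577-21963776 for Epor; Rhd lies on the forward strand and the other 4 on the reverse strand.
Cpa3: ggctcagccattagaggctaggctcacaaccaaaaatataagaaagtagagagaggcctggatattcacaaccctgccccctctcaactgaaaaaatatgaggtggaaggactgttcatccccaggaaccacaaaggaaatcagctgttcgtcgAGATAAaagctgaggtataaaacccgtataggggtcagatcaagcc
Fcer1a: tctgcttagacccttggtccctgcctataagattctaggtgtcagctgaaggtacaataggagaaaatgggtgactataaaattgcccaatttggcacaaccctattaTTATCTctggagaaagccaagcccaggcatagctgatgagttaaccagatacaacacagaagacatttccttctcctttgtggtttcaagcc
Ms4a2: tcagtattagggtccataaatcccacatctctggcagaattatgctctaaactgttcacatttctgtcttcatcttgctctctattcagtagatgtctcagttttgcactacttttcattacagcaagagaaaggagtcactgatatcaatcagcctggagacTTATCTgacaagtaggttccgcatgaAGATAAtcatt
Rhd: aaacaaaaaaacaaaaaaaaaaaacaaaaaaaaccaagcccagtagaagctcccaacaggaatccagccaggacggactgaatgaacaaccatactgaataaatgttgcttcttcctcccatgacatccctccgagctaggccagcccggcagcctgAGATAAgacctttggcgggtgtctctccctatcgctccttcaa
Epor: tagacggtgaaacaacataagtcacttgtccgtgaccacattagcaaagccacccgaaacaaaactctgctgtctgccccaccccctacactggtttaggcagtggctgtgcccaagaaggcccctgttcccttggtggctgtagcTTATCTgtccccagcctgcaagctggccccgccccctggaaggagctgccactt
The first base of the motif lies 46 bases before the start in Cpa3, 92 in Fcer1a, 37 and 11 in Ms4a2, 43 in Rhd and 54 in Epor. The motif was present in the same window of 7.80% of 32851 RefSeq promoters, in 5.77% of the genes tested, in 7.01% of the genes called higher in BMMCs and in 7.00% of those called higher in CMPs. By list, it was found in 1 of 7 granule protease promoters in the RefSeq table, 4 of 14 of the IgE receptor list (with Lcp2 and Rgs13), 0 of 10 of the neutrophil primary granule list and 2 of 14 of the erythroid list. The other motifs searched on both strands were CATGTG, TTGCGCAA and GAGGAAGT, present in 7.30%, 0.232% and 2.86% of the genes tested, in 9.53%, 0.0548% and 4.55% of those higher in BMMCs and in 6.01%, 0.247% and 1.98% of those higher in CMPs. None of the 4 motifs overlaps another, and a match is a description of the letters only.

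**Figure D3:**
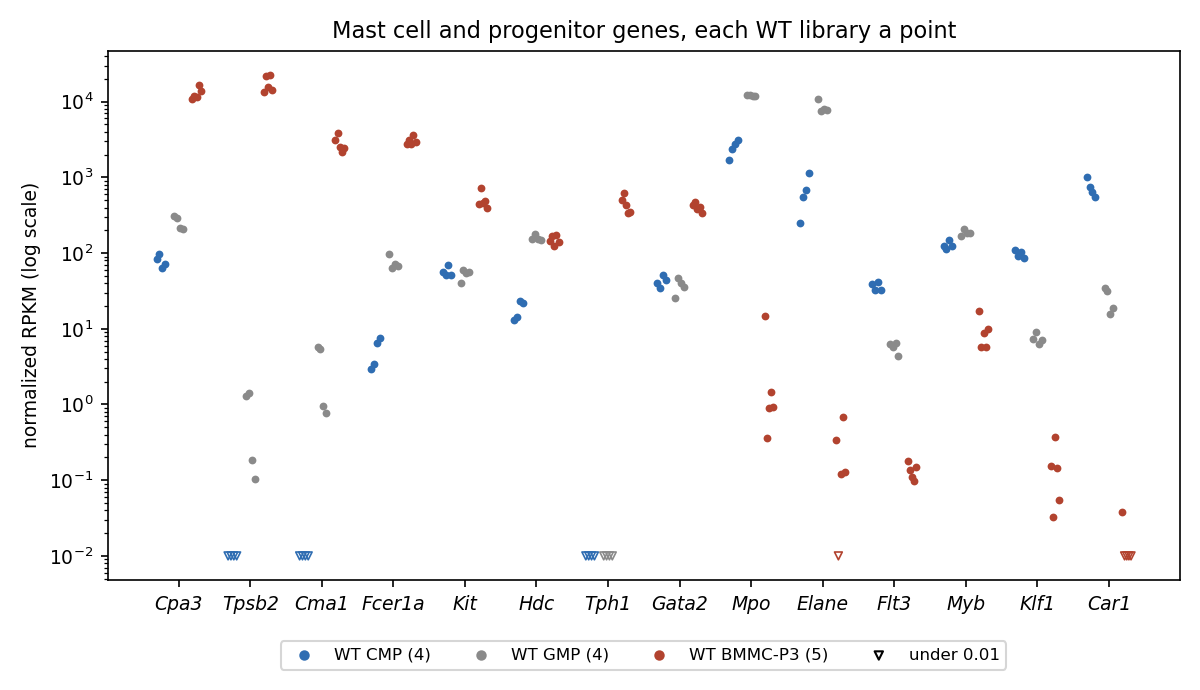
Normalized RPKM (y axis, log scale) of 14 mast cell and progenitor genes (x axis) in each WT CMP, WT GMP and WT BMMC-P3 library, 1 point a library; open triangles mark values under 0.01. BMMCs lie above CMPs for Cpa3, Tpsb2, Cma1, Fcer1a, Kit, Hdc, Tph1 and Gata2 and below them for the other genes, while Hdc lies at 149.9 to 178 in GMPs and 125 to 175 in BMMCs.

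The chains of the high-affinity IgE receptor and several of its adaptors were higher in BMMCs, while the kinases Lyn, Fyn and Syk next to it changed by less than 4-fold. Of 16 members tested, 9 were called higher in BMMCs and none higher in CMPs, beside 18.0% and 13.4% of all genes tested. The median log2 fold change was 2.41, or 1.82 with the length trend removed. The ligand-binding α chain Fcer1a (chr1:173221284-173227214) was at 2720.3, 3138, 2735, 3668 and 2941 in BMMCs and 2.92, 3.41, 6.41 and 7.60 in CMPs (log2 fold change 9.14 ± 0.34 SE, adjusted p = 1.0e-10). No BMMC library came near a CMP library, and GMPs were at 62.6 to 96.3. The β chain Ms4a2 was at 296 to 397 against 4.99 to 7.58, 50.05-fold, and the shared γ chain Fcer1g at 851 to 979 against 75.1 to 99.3, 9.50-fold. The adaptors Lat, Lat2, Lcp2 and Gab2, the phospholipase Plcg1 and the inhibitory phosphatase Inpp5d were called as well, between 5.31-fold for Inpp5d and 16.3-fold for Gab2. Lyn, Fyn and Syk were at log2 fold changes of 1.84, 1.85 and 1.46.

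Of 8 genes of histamine and serotonin synthesis, transport, breakdown and sensing, 5 were called higher in BMMCs and 1 higher in CMPs (median log2 fold change 3.53). The shares of all genes tested were 18.0% and 13.4%. Tph1, tryptophan hydroxylase, the rate-limiting enzyme of serotonin synthesis outside the brain, was at 506, 627, 438, 334 and 351 in BMMCs. It had no read in CMPs or GMPs and was at least 35226-fold higher in BMMCs. Hdc, histidine decarboxylase, which makes histamine, was at 146, 169, 125, 175 and 139 in BMMCs and 12.9, 14.4, 23.2 and 22.2 in CMPs (log2 fold change 2.96 ± 0.19 SE, adjusted p = 1.2e-08). The groups did not overlap, and Hdc in GMPs, at 149.9 to 178, lay within or just above the BMMC range. The vesicular monoamine transporter Slc18a2, which loads histamine and serotonin into granules, was at 152 to 222 in BMMCs, 9.29 to 10.7 in CMPs and 4.43 to 5.82 in GMPs, 17.0-fold above CMPs. Ddc, the decarboxylase that completes serotonin synthesis, was low in BMMCs at 1.42 to 8.15 and at most 0.0234 in CMPs, and the histamine receptor Hrh4 was at 4.73 to 8.02 against at most 0.0160. The exception was Slc22a3, a plasma-membrane transporter of monoamines, at 2.98 to 7.82 in BMMCs and 27.2 to 32.5 in CMPs, 6.36-fold higher in CMPs. Hnmt, which methylates histamine, was at 1.91 to 2.95 against 5.17 to 8.41 (log2 fold change -1.59) and was not called.

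Of 10 genes of eicosanoid synthesis, 7 were called higher in BMMCs, beside 18.0% of all genes tested (median log2 fold change 2.51). Alox5, the 5-lipoxygenase that starts leukotriene synthesis, was at 837, 952, 775, 815 and 762 in BMMCs and 3.84, 4.30, 5.53 and 4.28 in CMPs (log2 fold change 7.44 ± 0.16 SE, adjusted p = 4.4e-12). The lowest BMMC library was above 100 times the highest CMP library. Its partner Alox5ap was present in both, at 530.3 to 667 and 182 to 254 (log2 fold change 1.37), and was not called. Ltc4s, which makes leukotriene C4, was 5.03-fold higher in BMMCs. On the prostaglandin side, Hpgds, the prostaglandin D synthase of mast cells, was at 18.5 to 38.3 against 0.0282 to 0.168, 275-fold, Ptgs1, cyclooxygenase-1, was 5.68-fold higher and Tbxas1, thromboxane synthase, 5.72-fold. Ptgs2, cyclooxygenase-2, was at 2.44 to 3.03 in BMMCs and at most 0.00355 in CMPs.

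Proteoglycan synthesis and the exocytosis machinery changed less. Of 21 genes of proteoglycan and heparin synthesis, 5 were called higher in BMMCs, near the 18.0% of all genes tested (median log2 fold change 1.06). They were the sulfotransferases Hs3st1 (29.9-fold), Chst15 (7.55-fold), Hs6st1 (5.22-fold), Chst11 (5.09-fold) and Ndst1 (4.93-fold), enzymes that add sulfate to heparan or chondroitin chains. Serglycin, the granule core protein encoded by Srgn, was at 1069 to 1311 in BMMCs and 422 to 589 in CMPs and was not called (log2 fold change 0.98). Ndst2, the N-deacetylase/N-sulfotransferase of mast cell heparin, was at 35.9 to 40.9 against 9.07 to 10.4 (log2 fold change 1.90) and stayed under the 4-fold threshold. Of 15 exocytosis genes, 4 were called higher in BMMCs, against the same 18.0% of all genes, with a median of 0.82. The synaptotagmin-like Sytl2 was at 40.9 to 61.7 against 0 to 0.0165, the small GTPase Rab27b at 61.5 to 89.7 against 4.90 to 6.33 and the syntaxin Stx3 at 28.5 to 33.5 against 2.93 to 3.76, and Syt9, at 0.0791 to 0.386, was close to the detection limit. Rab27a, the paralog of Rab27b, was at 13.3 to 17.5 against 23.8 to 30.5 and was not called.

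Lysosomal genes were called higher in BMMCs for 11 of 18 members and none was called higher in CMPs, beside 18.0% and 13.4% of all genes tested. The median log2 fold change was 2.12. The cathepsins Ctsd, Ctsb and Ctsl, which degrade protein in the lysosome, were at 3347 to 5269, 711 to 987 and 221 to 339 in BMMCs against 151 to 175, 51.1 to 58.6 and 4.34 to 7.28 in CMPs. The granule membrane tetraspanin Cd63 was at 391 to 442 against 34.0 to 60.4, 7.72-fold. Several of these genes are also abundant in macrophages. In NSP4 KO BMMC-P3 3, 13 of the 18 were lower than in each of the other 4 KO BMMC libraries. Ctsb was at 179.5 against 827 to 1454 and Ctsl at 37.4 against 265 to 461. In that library 13 of 15 ribosome biogenesis genes were lower too, so the count is not particular to lysosomal genes.

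Most genes of the mast cell surface were higher in BMMCs, with 16 of 21 called and 1 (Enpp3) called higher in CMPs. The shares of all genes tested were 18.0% and 13.4%, and the median log2 fold change of the list was 4.86. Kit, the receptor for stem cell factor and a sorting marker of CMPs, was at 447, 734, 464, 490.5 and 392 in BMMCs and 56.7, 51.5, 69.6 and 51.7 in CMPs (log2 fold change 3.05 ± 0.19 SE, adjusted p = 8.0e-09). WT BMMC-P3 2 was the highest, and the lowest BMMC library was still above 5 times the highest CMP library. The interleukin-33 receptor Il1rl1 was at 672 to 887 against 6.67 to 7.67, 95.9-fold, and the adenosine receptor Adora3 at 50.1 to 79.1 against 0.0925 to 0.229, 321-fold. The cytokine receptor subunits Csf2rb and Csf2rb2, used by the receptors for interleukin-3, interleukin-5 and GM-CSF, were at 484 to 627 and 642 to 887 against 3.90 to 5.75 and 0.474 to 0.815, with an uncertain split between these near-identical genes. Il4ra and Il9r, receptors for interleukin-4 and interleukin-9, were 18.0-fold and 1547-fold higher. The basic secretagogue receptor Mrgprb2, a marker of connective tissue mast cells, was low in BMMCs at 1.28 to 4.57 and had no read in CMPs. Enpp3, an ectonucleotidase of basophils and mast cells, was at 0 in every BMMC library and at 0.109 to 0.150 in CMPs.

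Cytokine and chemokine transcripts were present in BMMCs without a labelled stimulus. They were called higher in BMMCs for 15 of 18 members, beside 18.0% of all genes tested. The median log2 fold change was 6.83, or 5.65 with 5 members at their bounds. Ccl2, which attracts monocytes, was at 342, 438, 322, 227 and 254 in BMMCs and 0.158, 0.144, 0 and 0 in CMPs (log2 fold change 11.90 ± 0.44 SE, adjusted p = 1.1e-10). Lif, a cytokine of the interleukin-6 family, was at 174 to 272 against at most 0.0195, and Ccl3 and Ccl4, chemokines of the MIP-1 family, were at 174 to 264 and 56.8 to 166 against 0.705 to 1.85 and 0.558 to 2.39. No BMMC library overlapped a CMP library for these genes, and WT BMMC-P3 2 was the highest for Ccl4. The inflammatory cytokines Il6 and Tnf were at 47.2 to 54.1 and 33.3 to 109 against 0.0881 to 0.203 and 0.0150 to 0.353, and the type 2 cytokines Il4 and Il13 at 10.9 to 18.6 and 0.704 to 2.84 against 0.0873 to 0.396 and 0 to 0.0534. Il5 had no read in any of the 9 libraries. Of the 18 genes, 9 were below and 6 above each of the other 4 KO BMMC libraries in NSP4 KO BMMC-P3 3. Ccl3 was at 60.7 against 239.9 to 305 and Ccl2 at 1172 against 245 to 451. As given above, this library also differed in lists of other kinds. Tgfb1, an immunoregulatory cytokine, was not called, at 257 to 331 in BMMCs and 221 to 250.3 in CMPs (log2 fold change 0.27).

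Among regulators of mast cell transcription, 8 of 17 were called higher in BMMCs and 2 higher in CMPs, beside 18.0% and 13.4% of all genes tested (median log2 fold change 0.94, or 0.61 with the length trend removed). Gata2, a zinc-finger factor needed by stem cells and mast cells, was at 427, 479, 379.8, 401 and 339.8 in BMMCs and 40.2, 34.3, 51.6 and 43.6 in CMPs (log2 fold change 3.17 ± 0.14 SE, adjusted p = 6.0e-10). Mitf, the helix-loop-helix factor of mast cells and melanocytes, was at 24.7, 29.9, 27.7, 30.2 and 26.5 in BMMCs and 0.427, 0.274, 0.410 and 0.360 in CMPs (log2 fold change 6.14 ± 0.15 SE, adjusted p = 7.2e-12). Both genes separated the groups without overlap, and in GMPs they were at 25.4 to 46.4 and 0.861 to 1.22. The helix-loop-helix repressor Bhlhe40, the helix-loop-helix inhibitor Id2 and the membrane-bound factor Creb3l1 were higher in BMMCs, at 275 to 396, 115 to 160.2 and 89.3 to 169.9 against 0.264 to 0.589, 0.662 to 1.43 and 0.283 to 0.564. The GATA cofactor Zfpm1 went the other way, at 8.00, 4.78, 6.75, 5.58 and 5.52 in BMMCs and 77.7, 62.6, 106 and 74.6 in CMPs (log2 fold change -3.80 ± 0.18 SE, adjusted p = 8.8e-10). Zfpm1 in GMPs was at 6.65 to 10.2, near the BMMC level.

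Of the general myeloid transcription factors, 6 of 18 were called higher in BMMCs and 2 higher in CMPs, beside 18.0% and 13.4% of all genes tested (median log2 fold change 0.80, or 0.32 with the length trend removed). Myb, a regulator of progenitor proliferation, was at 17.2, 5.75, 8.69, 5.74 and 9.79 in BMMCs and 125, 112, 151 and 125 in CMPs (log2 fold change -3.85 ± 0.29 SE, adjusted p = 5.8e-08), with every BMMC library below every CMP library. Irf8, needed for monocytes and dendritic cells, was at 16.5 to 23.7 against 75.2 to 82.7, 4.19-fold higher in CMPs, a call lost in 3 alternatives. Cebpb, Irf5, Klf4 and Egr1, factors of myeloid activation, were higher in BMMCs, at 143 to 184, 44.4 to 57.9, 17.1 to 29.0 and 321 to 499 against 8.47 to 17.4, 5.64 to 6.24, 0.270 to 1.04 and 0.635 to 1.51. Spi1, which encodes PU.1, was at 107 to 135 against 50.5 to 70.0 and Myc at 34.2 to 68.1 against 116 to 181, and neither was called (log2 fold changes 0.97 and -1.63). In NSP4 KO BMMC-P3 3, 10 of the 18 were below and 7 above each of the other 4 KO BMMC libraries. That library also differed in lists of other kinds, so the count is not particular to these factors.

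Genes of the neutrophil primary granule divided into a part that was nearly silent in BMMCs and a part that was not. Of 11 members tested, 6 were called higher in CMPs and 3 higher in BMMCs, beside 13.4% and 18.0% of all genes tested (median log2 fold change -6.37). Mpo, myeloperoxidase, was at 14.9, 0.364, 0.898, 1.47 and 0.935 in BMMCs and 1688, 2344, 2791 and 3091 in CMPs (log2 fold change -9.47 ± 1.04 SE, adjusted p = 2.1e-06). WT BMMC-P3 1 stood above the other 4 BMMC libraries for Mpo, and GMPs were at 11720.4 to 12309. Elane, neutrophil elastase, was at 0.338, 0, 0.122, 0.686 and 0.129 in BMMCs and 248, 545, 681 and 1127 in CMPs (log2 fold change -11.38 ± 0.58 SE, adjusted p = 1.7e-09), and Prtn3, proteinase 3, at 2.55 to 11.8 against 964 to 2108. Prss57, the gene of NSP4, was at 0.451, 0.0354, 0.113, 0.0475 and 0.179 in BMMCs and 17.1, 26.9, 17.0 and 32.0 in CMPs (log2 fold change -7.22 ± 0.42 SE, adjusted p = 5.6e-09). Its levels in the 2 groups did not overlap, and GMPs were at 123 to 198.

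The membrane protein Ms4a3 and the lymphocyte granule protein Nkg7 were also higher in CMPs, at 80.4 to 326 and 129.8 to 203 against 0.800 to 6.00 and 0.571 to 2.70 in BMMCs. Cathepsin G, encoded by Ctsg in the chymase locus, was at 980.0, 1084, 777, 575 and 660.5 in BMMCs and 917, 1159.9, 912 and 1678 in CMPs, and these overlapping ranges were not called (log2 fold change -0.61). Ctsc, the cathepsin that activates granule serine proteases, was at 127 to 175 in BMMCs against 13.6 to 15.4 in CMPs, 9.83-fold, and the protease inhibitor Serpinb1a at 864 to 1276 against 106 to 177, 6.41-fold. Lysozyme, encoded by Lyz2, was at 9432 to 14308 against 141 to 234, 56.8-fold, but at 978 in NSP4 KO BMMC-P3 3 against 12610.2 to 18667 in the other 4 KO BMMC libraries.

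Most erythroid genes were higher in CMPs. Of 18 erythroid genes, 16 were called higher in CMPs and none higher in BMMCs, beside 13.4% and 18.0% of all genes tested. The median log2 fold change was -8.07, or -6.12 with 7 members at their bounds. Klf1, the master transcription factor of red cells, was at 110.2, 91.9, 103 and 85.3 in CMPs and 0.155, 0.0329, 0.367, 0.147 and 0.0554 in BMMCs (log2 fold change -9.34 ± 0.28 SE, adjusted p = 2.6e-11). The erythropoietin receptor Epor was at 29.4 to 38.5 against 0.0767 to 0.385, 155-fold, and the blood group protein Rhd, whose promoter is printed above beside that of Epor, at 53.1 to 87.4 against 0, at least 748-fold. The water channel Aqp1 was at 219 to 298 against 0 to 0.109 and the carbonic anhydrase Car2 at 415 to 608 against 17.5 to 20.4. The globins Hba-a1 and Hbb-bs were low even in CMPs, at 3.41 to 9.91 and 3.57 to 13.3, and the split between globin copies is uncertain. In GMPs, on the same run as CMPs, Klf1 was at 6.23 to 9.11 and Epor at 1.14 to 2.28.

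Megakaryocyte genes were split. Of 15 members, 7 were called higher in CMPs and none higher in BMMCs, beside 13.4% and 18.0% of all genes tested. The median log2 fold change was -1.23. Gp9, a part of the platelet receptor for von Willebrand factor, was at 66.3, 62.5, 32.2 and 48.7 in CMPs and 0.755, 0.857, 0.638, 0.818 and 0.915 in BMMCs (log2 fold change -6.13 ± 0.25 SE, adjusted p = 2.2e-10). The groups did not overlap, and Gp1bb, of the same receptor, was at 23.2 to 35.6 against 0.202 to 0.338. Pf4, platelet factor 4, was abundant in both groups with overlapping ranges, 497 to 757 in BMMCs and 632 to 1277 in CMPs, against 14.9 to 46.6 in GMPs. The integrin Itga2b was at 298 to 414 in BMMCs and 102 to 138 in CMPs and was not called (log2 fold change 1.46).

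Of 23 stem and progenitor regulators, 9 were called higher in CMPs and 2 higher in BMMCs, beside 13.4% and 18.0% of all genes tested (median log2 fold change -1.44, or -1.95 with the length trend removed). Flt3, a receptor kinase of multipotent and lymphoid-primed progenitors, was at 39.0, 32.6, 41.4 and 32.6 in CMPs and 0.182, 0.138, 0.110, 0.0985 and 0.151 in BMMCs (log2 fold change -8.16 ± 0.16 SE, adjusted p = 2.9e-12). The homeobox genes Hoxa5, Hoxa7, Hoxa9 and Hoxa10 were 13.1-fold to 36.4-fold higher in CMPs, though Hoxa5 did not exceed 0.858. Lmo2, an adaptor of blood transcription complexes, was at 213 to 241 against 20.5 to 25.2. Gfi1b, a transcriptional repressor that acts within the erythroid and megakaryocyte lineages, was at 58.5 to 67.8 against 2.60 to 5.29. The exceptions were the stem cell regulator Mecom and the Ikaros-family factor Ikzf2, higher in BMMCs, at 2.60 to 4.36 and 4.84 to 6.76 against 0.231 to 0.553 and 0.425 to 0.766. The sialomucin Cd34 was not called, at 180.2 to 262 in BMMCs against 307 to 338 in CMPs (log2 fold change -0.74).

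The sorting markers bore on the labels of both groups. CMPs held Kit and Cd34 and little Ly6a, which encodes SCA-1 (2.46 to 4.18), or Il7r (0.0382 to 0.249), and the CD16/32 gene Fcgr3 was at 13.5 to 38.5 against 266 to 382 in GMPs. BMMCs were higher for 4 of 5 sorting markers, Kit, Fcgr3, Fcgr2b and Ly6a, the last at 204, 342, 212, 191 and 155 in BMMCs and 2.95, 2.46, 2.66 and 4.18 in CMPs (log2 fold change 6.09 ± 0.27 SE, adjusted p = 4.6e-10). Among 4 lymphoid genes tested of 16, 3 were called higher in CMPs: Dntt, the terminal transferase of early lymphocytes, at 17.7 to 22.0 against 0 to 0.142, Cd79b, a B cell receptor chain, at 26.8 to 40.3 against 0.346 to 0.631, and Rag2, of the antigen receptor recombinase, at 0.489 to 0.835 against 0. Il7r, the interleukin-7 receptor, was called higher in BMMCs, at 13.6 to 19.1, but it was at 1.48 in NSP4 KO BMMC-P3 3 against 13.996 to 28.4 in the other 4 KO BMMC libraries. Of the genes of lineage markers against which the progenitors were sorted, 4 of 5 tested were called higher in BMMCs, the integrin Itgam at 46.5 to 78.8 against 0.391 to 0.666 in CMPs, the phosphatase gene Ptprc, the granulocyte antigen Ly6g and Il7r. The antibody used for sorting binds B220, 1 form of the Ptprc product, and counts per gene do not separate it from the forms of other leukocytes, so Ptprc is no check of the sort. Of these 5 genes, 3 were lower in NSP4 KO BMMC-P3 3 than in each of the other 4 KO BMMC libraries.

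**Figure D4:**
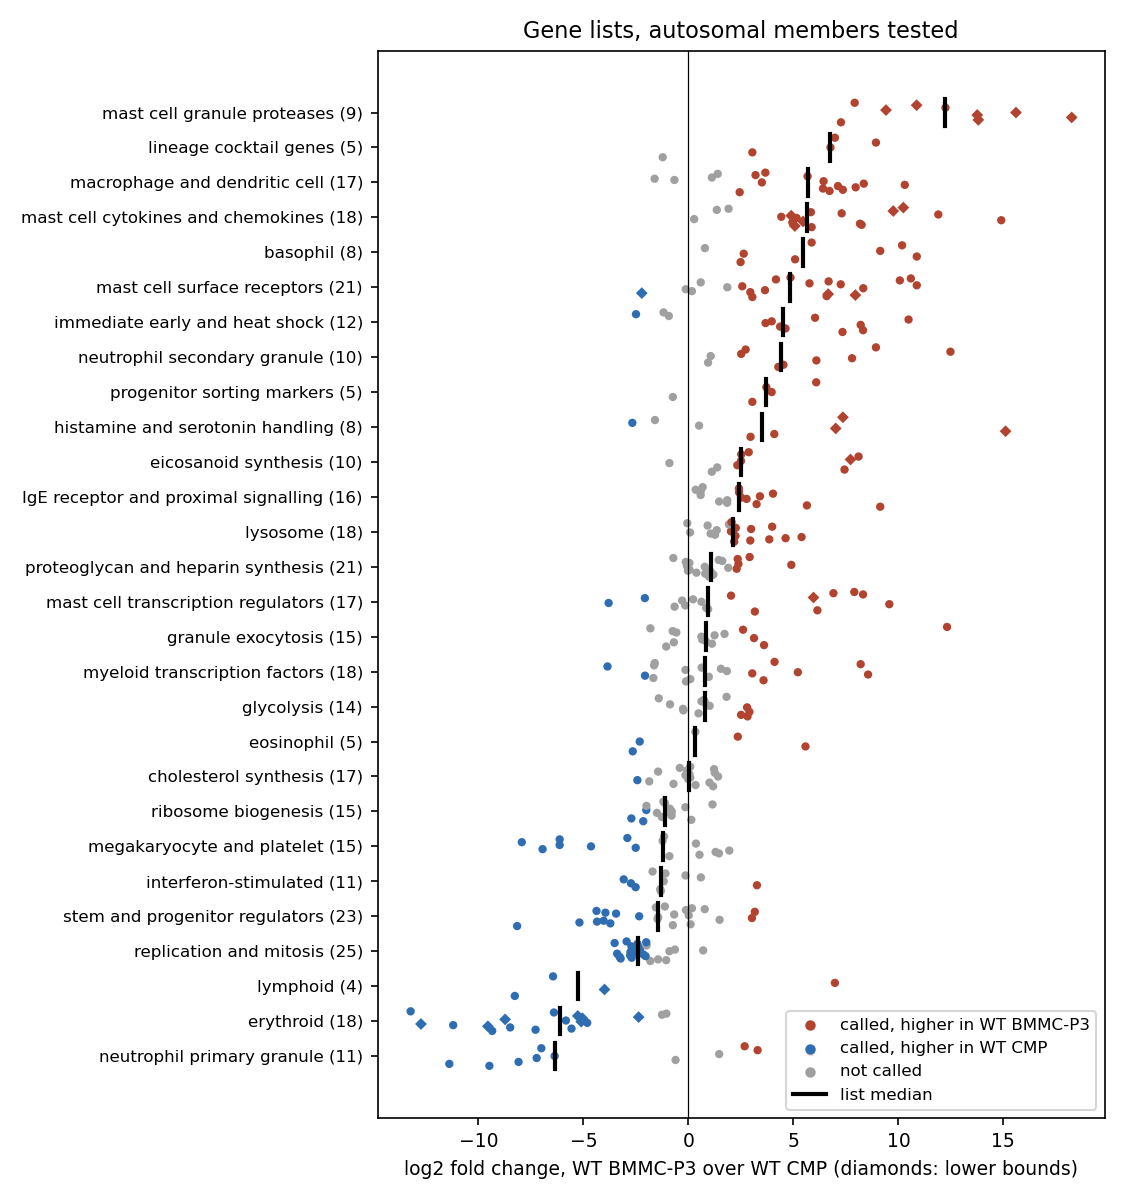
Log2 fold change of WT BMMC-P3 over WT CMP (x axis) of each tested autosomal member of 28 gene lists (y axis, number tested in brackets), coloured by call, with diamonds at lower bounds and black bars at list medians with bounds. Granule proteases lie farthest to the right and neutrophil primary granule and erythroid genes farthest to the left, while cholesterol synthesis is centred near zero.

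Genes of DNA replication and mitosis were lower in BMMCs. Of 25 members, 17 were called higher in CMPs and none higher in BMMCs, beside 13.4% and 18.0% of all genes tested. The median log2 fold change was -2.39, or -2.31 with the length trend removed. The replicative helicase subunits Mcm5 and Mcm7 were at 172 to 179.6 and 65.4 to 68.3 in CMPs against 12.1 to 32.3 and 4.91 to 10.9 in BMMCs. The mitotic kinase Aurkb was at 83.4, 77.8, 82.3 and 78.3 in CMPs and 14.7, 4.197, 8.27, 3.43 and 6.83 in BMMCs (log2 fold change -3.51 ± 0.34 SE, adjusted p = 5.5e-07), and the cyclin-dependent kinase Cdk1 at 51.9 to 75.0 against 5.74 to 17.7. No BMMC library reached a CMP library for these 4 genes. GMPs were at 105 to 117 for Aurkb and 55.4 to 72.2 for Cdk1, and the ranges of BMMCs and CMPs overlapped for Top2a, topoisomerase II, at 14.9 to 52.5 and 35.2 to 63.4.

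Of 15 ribosome biogenesis genes, 3 were called higher in CMPs, near the 13.4% of all genes tested, with a median log2 fold change of -1.12. These were Fbl, the nucleolar methyltransferase, Npm1, nucleophosmin, and Wdr12, at log2 fold changes of -2.71, -2.15 and -2.004. Wdr12 lay at the threshold and lost its call in 9 alternatives, and reads of Fbl and Npm1 may be split with pseudogene copies. Of 14 genes of glucose uptake and glycolysis, 4 were called higher in BMMCs, where the share over all genes tested was 18.0%. They were the glucose transporters Slc2a1 (7.05-fold) and Slc2a3 (5.69-fold), hexokinase Hk2 (7.49-fold) and phosphofructokinase Pfkp (6.95-fold), with a list median of 0.77. Lactate dehydrogenase Ldha was at 168 to 195 in BMMCs and 333 to 504 in CMPs and was not called. The cholesterol synthesis list had a median of 0.05, or -0.22 with the length trend removed, with 1 of 17 called, Fdps, whose uniquely aligned reads were few. Of 11 interferon-stimulated genes, 3 were called higher in CMPs, Irf7, Oasl2 and Ifit2, and 1, Mx1, higher in BMMCs, beside 13.4% and 18.0% of all genes tested (median -1.31, or -0.57 with the length trend removed).

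Immediate early genes were higher in BMMCs. Of 12 immediate early and heat shock genes, 9 were called higher in BMMCs and 1, the heat shock gene Hspa1b, higher in CMPs (median log2 fold change 4.50). The shares of all genes tested were 18.0% and 13.4%. Fos, a subunit of the AP-1 factor, was at 158, 234, 122, 136 and 121 in BMMCs and 0.997, 1.37, 0.786 and 0.372 in CMPs (log2 fold change 7.34 ± 0.36 SE, adjusted p = 1.2e-09). Atf3, a stress-induced factor, was at 41.4 to 50.1 against 0.0147 to 0.0456, and Junb and Ier2 at 301 to 424 and 336 to 577 against 15.9 to 17.3 and 30.0 to 34.7. Culture preceded lysis in the BMMC group and sorting in the CMP group, which cannot be told apart from cell type here.

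Markers of other cells were checked in both groups. In bulk RNA, more cells of a type and more RNA per cell cannot be told apart. Of 17 macrophage and dendritic cell genes tested, 13 were called higher in BMMCs and none higher in CMPs (median log2 fold change 5.68). Their summed normalized RPKM was 2242 to 3279 in BMMC libraries and 207 to 336 in CMP libraries, and the most abundant was Cd74, the MHC class II invariant chain, in BMMCs (855, 589, 778, 609 and 1059) and Ly6c2 in CMPs (82.2 to 169). The complement gene C1qb was at 387 to 517 against 1.00 to 2.29 and the macrophage receptors Adgre1 and Mrc1 at 73.6 to 132 and 86.0 to 126 against 0.737 to 1.02 and 0.0439 to 0.120. Of the defining markers, Siglech, of plasmacytoid dendritic cells, was at or near 0 in all 9 libraries (at most 0.0529).

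The NSP4 KO BMMC libraries, from cultures of the other genotype, differed among themselves in these genes. The summed level was 319.6 in NSP4 KO BMMC-P3 3 and 2856 to 3646 in the other 4 NSP4 KO BMMC libraries. In that library 16 of the 17 genes were below each of the other 4, and Cpa3, Cma1 and Fcer1a were above them, at 29822, 14489.7 and 6786 against 10304 to 10864, 1565 to 3407 and 2189 to 2958. Of the 9 granule proteases tested, 6 were above and 2 below each of the other 4. Those below were Tpsab1, at 13.3 against 513 to 1178, and Mcpt1, at 20.5 against 20.7 to 34.6, and Tpsb2, at 21821, lay within 9474 to 22372. The wild-type BMMC libraries lay with the other 4. Lists of other kinds differed in NSP4 KO BMMC-P3 3 too. There 13 of 15 ribosome biogenesis genes were below each of the other 4 and 15 of 17 cholesterol synthesis genes above. No share over all genes tested is given beside these counts or the 16 of 17. The part of other cells in the BMMC results was not tested.

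**Figure D5:**
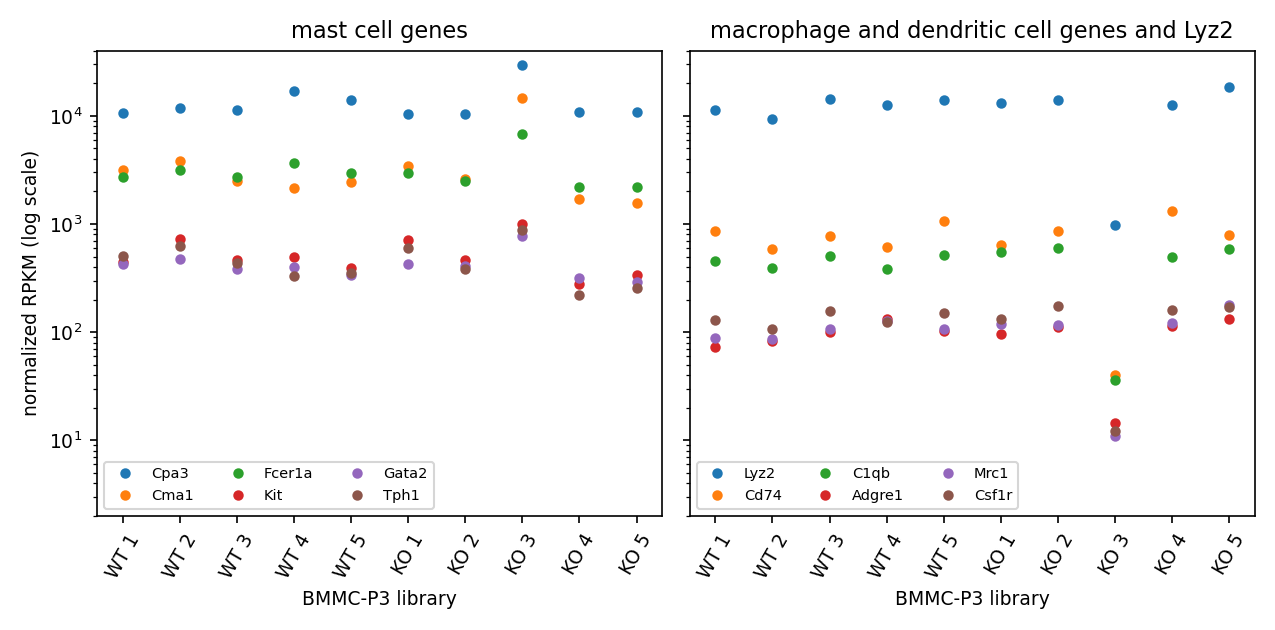
Normalized RPKM (y axis, log scale) of 6 mast cell genes (left) and of 5 macrophage and dendritic cell genes and the lysozyme gene Lyz2 (right) in the 5 WT and 5 NSP4 KO BMMC-P3 libraries (x axis), 1 point a gene and library. In KO 3 the genes on the right lie at 11.03 to 978, below the other KO libraries, while Cpa3, Cma1 and Fcer1a on the left are above those of the other KO libraries.

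Basophil genes were called higher in BMMCs for 7 of 8 members, beside 18.0% of all genes tested (median log2 fold change 5.48). Of these members, Fcer1a, Cd200r3 and Il4 are also mast cell genes. The basophil proteases Mcpt8 and Prss34 were at 132 to 231 and 153 to 381 in BMMCs and 21.6 to 45.7 and 2.52 to 13.1 in CMPs, below the GMP levels of 662 to 852 and 1092 to 1302. Cyp11a1, a steroid-synthesizing enzyme found in mast cells and basophils, was at 598 to 708 against 0.324 to 0.651, 1158-fold. Of 10 later neutrophil genes tested, 8 were called higher in BMMCs and none higher in CMPs (median 4.40), beside 18.0% and 13.4% of all genes tested. The defining markers were Ltf, Camp, Ngp, S100a8 and Ly6g. Ltf and Camp were at no more than 0.893 and 0.318 in BMMCs. Low as it was, Ltf was called higher in BMMCs, as was Ly6g. Values of Ngp and S100a8 are not given here. Chil3, a chitinase-like protein of neutrophils and macrophages, was the most abundant at 339.6 to 1001. In NSP4 KO BMMC-P3 3, 8 of the 10 genes were lower than in each of the other 4 KO BMMC libraries, among them Chil3 at 93.5 and Mmp8 at 11.1. That library lay outside the other 4 in unrelated lists as well, as given above. The 5 eosinophil genes tested were called higher in BMMCs for 2 and in CMPs for 2, beside 18.0% and 13.4% of all genes tested (median 0.33). Prg2, the eosinophil major basic protein, was at 5.09, 0.279, 28.2 and 26.3 in CMPs, and at 1.32 to 3.74 in BMMCs; the ranges overlapped, and the call was lost in 13 alternatives, DESeq2 and limma voom included. Epx, eosinophil peroxidase, did not exceed 1.57 in any of the 9 libraries.

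The most abundant transcripts differed in kind. In BMMCs the 10 autosomal protein-coding genes with the highest mean normalized RPKM were Tpsb2, Cpa3, Lyz2, Fth1, Ctsd, Psap, Ccl6, Fcer1a, Cma1 and Itm2b, of which all but Itm2b were called higher in BMMCs. Ferritin heavy chain Fth1 was at 6790.1 to 9609 against 1226 to 1579.7, the lysosomal saposin precursor Psap at 3116 to 4473 against 166 to 217 and the chemokine Ccl6 at 2488 to 3898 against 2.83 to 6.21. In NSP4 KO BMMC-P3 3 they were at 2966, 509 and 364, against 7623 to 10496, 4026 to 6249.6 and 3148 to 5086 in the other 4 KO BMMC libraries. The 10 highest in CMPs included Rack1, Rpl8, Rps3, Gpx1, Plac8, Rplp1, Mpo, Rps15 and B2m, and 7 of these 9 were called higher in CMPs, with Rplp1 (log2 fold change -1.98) and B2m (-0.40) not called. Rack1, a scaffold protein of the ribosome, was at 6580.2, 6997, 3806 and 7074 in CMPs and 1415, 1189, 1274, 1229 and 1422 in BMMCs (log2 fold change -2.32 ± 0.17 SE, adjusted p = 5.5e-08). WT CMP 3 was the lowest CMP library for Rack1. With the length trend removed, the log2 fold changes of Rack1, Rps3, Plac8 and Mpo were -2.57, -2.85, -8.38 and -9.33. Those of Rpl8, Rps15 and Gpx1 were -1.59, -1.45 and -1.32, and these 3 genes lost their calls. Rplp1 was at -0.86 and B2m at 0.51 in the same fit. Plac8, a small cysteine-rich protein of myeloid progenitors, was at 2868, 3077, 1815 and 3989 in CMPs and 11.9, 2.26, 5.06, 4.61 and 5.16 in BMMCs (log2 fold change -9.07 ± 0.46 SE, adjusted p = 1.6e-09).

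The same comparison in the other genotype used libraries that are separate from these but shared the same split of sex and sequencing run. Of the genes called in wild type, 2235 of those higher in BMMCs (86.4%) and 1682 of those higher in CMPs (87.2%) were also called in the same direction between 5 NSP4 KO BMMC-P3 and 4 NSP4 KO CMP libraries, and 2329 and 1741 without NSP4 KO BMMC-P3 3. The difference between the genotypes in the BMMC over CMP fold change was tested as an interaction in a fit of all 18 libraries. No gene of 15947 passed an adjusted p under 0.01 by edgeR's quasi-likelihood test (smallest adjusted p = 0.814), and 287 had an unadjusted p under 0.05. Without NSP4 KO BMMC-P3 3 no gene of 15958 passed either (smallest adjusted p = 0.681, 362 at an unadjusted p under 0.05). NSP4 KO CMP 2 stood apart from the other NSP4 KO CMP libraries and was kept in these fits. Its summed normalized RPKM of the megakaryocyte list was 3708 against 1265 to 1550 in the others. Processed pseudogenes held 4.66% of its reads against 2.11% to 3.17%. No fit without it is given.

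Sex markers followed the labels. The Y-linked Eif2s3y was at 21.5, 15.7, 26.3, 29.3 and 26.7 in BMMCs and 0 in all 4 CMP libraries, and Xist, the X-inactivation transcript, at 2.54, 4.02, 2.58 and 3.22 in CMPs and at most 0.00850 in BMMCs. Genes of the sex chromosomes were left out of the counts above. Counted on any chromosome, 2670 genes were called higher in BMMCs and 2031 higher in CMPs.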

How the data were processed

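RNA was sequenced from 26 libraries, of which 5 WT BMMC-P3 and 4 WT CMP libraries enter the main comparison. The authors aligned single-end reads of 50 bases to GRCm38 with GSNAP in HTSeqGenie, tools credited to the submitters' processing notes and the study's methods, and counted uniquely aligned reads within exons. Whether strand was used is not given in the sources used here. For each library the authors deposited raw counts per gene and normalized RPKM, the count over a gene length and a size factor.

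Counts were tested with edgeR 4.0.16 (R 4.3.3): TMM normalization, filterByExpr, robust quasi-likelihood test, Benjamini-Hochberg adjustment over 15007 genes. Positions came from GENCODE M21 (52489 of 52636 genes matched). Calls needed an adjusted p under 0.01 and a difference of 4-fold or more. Named genes were the 10 largest changes in each direction (protein-coding, at least 10 CPM), the 10 most abundant in each group, members of 29 lists, and Prss57. Some of them are not reported here. Groups, lists and rules were chosen with earlier results of these data known. The SE values come from the same fit and include the spread between libraries. Floors cover counting error only. The alternatives used limma 3.58.1, DESeq2 1.42.0, other scalings, filters and thresholds, and left-out libraries.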

Additional observations from a re-analysis of the deposited data

Results flagged for a closer look

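A library was taken up here where its normalized RPKM for a named gene lay far from the others of its group, by a gap over the group's range above Dixon's critical value for the number of libraries. Of 360 groups of values with any spread, 30 met this. In 7 of them the other libraries were all at 0, where a single read is enough to meet it. Chance gives about 1 in 20 for values that vary in every library, and the number met is not set against that share. The values are given without an explanation.

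WT BMMC-P3 1 was the highest of its group for Aqp1 at 0.109 with the others at 0 to 0.0161, Car1 at 0.0382 with the others at 0 and Cd79b at 0.631 with the others at 0.346 to 0.422. In the same library this also held for Gfi1b at 5.29 with the others at 2.60 to 2.84, Mpo at 14.9 with the others at 0.364 to 1.47 and Ms4a3 at 6.00 with the others at 0.800 to 2.22. It held further for Srgn at 1311 with the others at 1069 to 1132. WT BMMC-P3 1 was the lowest of its group for Ptprc at 87.9 with the others at 100.5 to 104.

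WT BMMC-P3 2 was the highest of its group for Ccl4 at 166 with the others at 56.8 to 78.6, Cobl at 117 with the others at 77.3 to 86.8 and Il9r at 28.1 with the others at 12.7 to 17.0. In the same library this also held for Kit at 734 with the others at 392 to 490.5, Lcp2 at 175 with the others at 128 to 137 and Pfkp at 127 with the others at 90.7 to 99.9. It held further for Rab27b at 89.7 with the others at 61.5 to 67.8, Serpinb1a at 1276 with the others at 864 to 939 and Sytl2 at 61.7 with the others at 40.9 to 45.1. It held further for Xist at 0.00850 with the others at 0 to 0.00226.

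WT BMMC-P3 4 was the highest of its group for Adgrl4 at 0.0110 with the others at 0, Rab27a at 17.5 with the others at 13.3 to 14.3 and Siglech at 0.0137 with the others at 0.

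WT CMP 3 was the highest of its group for Gpnmb at 0.0210 with the others at 0, Lif at 0.0195 with the others at 0 and Ptgs2 at 0.00355 with the others at 0. WT CMP 3 was the lowest of its group for Ctsl at 4.34 with the others at 6.79 to 7.28, Ldha at 333 with the others at 477 to 504 and Rack1 at 3806 with the others at 6580.2 to 7074. In the same library this also held for Srgn at 422 with the others at 573 to 589.

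WT CMP 4 was the highest of its group for Ctsc at 15.4 with the others at 13.6 to 13.7 and Hrh4 at 0.0160 with the others at 0.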

How the results depend on the processing

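The counts of genes called higher in BMMCs (2587) and in CMPs (1930) kept within 1.5 times of these values in all but 2 of the alternatives. With at least 10 counts required in every library, which leaves fewer genes to test, they were 1442 and 1178, and at a fold of at least 2 they were 4284 and 3991. Without a filter on low counts they were 3179 and 2338. limma voom gave 2648 and 1891, DESeq2 2673 and 1835, RLE size factors 2668 and 1829, glmTreat 2530 and 1903, all 26 libraries in 1 fit 2799 and 2183, the NSP4 KO libraries 2412 and 2175, and those without NSP4 KO BMMC-P3 3 2529 and 2246. Leaving out 1 library at a time gave 2502 to 2762 and 1893 to 2114, the highest without WT CMP 3. Scaling by library size alone moved the median log2 fold change by -0.31 and turned the counts to 2236 and 2483, so that the share of calls higher in BMMCs was 47.4% in place of 57.3%.

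The replicate number as a block gave 2604 and 1906. Same-numbered BMMC and CMP libraries did not deviate together (correlations of 0.01, -0.02, 0.01 and -0.06 for numbers 1 to 4). Such low correlations between unlike cell types cannot exclude a link between same-numbered libraries, and the main test used no pairing.

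With the length trend removed, an alternative chosen after the data were seen, the counts were 2402 and 1562. Ctsg moved to a log2 fold change of 0.26, Pf4 to 0.11 and B2m to 0.51, and with scaling by library size alone Tgfb1 moved to -0.034; these 4 genes changed sign and none of them was called. Of 166 named genes past the threshold, 145 stayed on the same side of it in every alternative that gave them a value. Prg2 lost its call in 13 alternatives, Wdr12 in 9 and Irf8 in 3, one of them without WT BMMC-P3 2. The causes were not tested.

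At the depth of the BMMC libraries, the shallowest at 21322238 reads on genes, genes with few reads in both groups were not tested.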
